A study of Mus musculus with 10 samples.

Results

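Genes of T cell activation and signalling, 9 of the 31053 genes counted, were followed through single-cell RNA sequencing (scRNA-seq) of E0771 mouse breast tumors. The list was given by name, and it was chosen with earlier results of these data known. It held Cd4, Cd8a, Cd28, Icos, Skap1, Cblb, Cd69, Stat3 and Tox, and each was found by its symbol in the gene table. The 10 libraries came from tumors taken 21 days after E0771 cells, a mouse mammary carcinoma line, were placed in a mammary fat pad of female C57BL/6 mice, aged 16 weeks. WT mice were littermates of EC-AGO1-KO mice, in which VE-Cadherin-Cre (Cdh5-cre) cuts floxed Ago1 in endothelial cells. The paper gives the deletion as restricted to endothelial cells and absent in monocytes. Deletion in T cells was not tested here. The 5 WT libraries held 5 tumors and the 5 KO libraries held 7, since KO 2+3 and KO 5+6 each pooled tissue from 2 tumors. Batch 1 held 1 library of each genotype and batch 2 held 4 of each. No untreated normal tissue was analysed here, and p-values measure the spread between these libraries.

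A T cell recognises peptide on MHC through its antigen receptor, with CD4 or CD8 as coreceptor, and needs a costimulatory signal through receptors such as CD28 or ICOS to respond fully. Adaptors such as SKAP1 carry the receptor signal to integrins, while the ubiquitin ligase CBL-B restrains cells that lack costimulation. CD69 appears at the surface early in activation, STAT3 relays cytokine signals in most cell types, and TOX is a nuclear factor of thymic development that is also prominent in T cells under lasting antigen exposure. CD4, CD8, CD28 and ICOS are commonly used to define T cells, while STAT3 and CBL-B are known in many tissues.

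On mm10, Cd28 spans chr1:60716800-60773359 on the plus strand, and its relative Icos lies downstream on the same strand at chr1:60977927-61000320. Cd4 lies at chr6:124864692-124888221 (minus), Cd69 at chr6:129267325-129275436 (minus) and Cd8a at chr6:71373427-71379173 (plus). Skap1 lies at chr11:96464593-96759130 (plus) and Stat3 at chr11:100885098-100939540 (minus), Cblb at chr16:52031225-52208048 (plus) and Tox at chr4:6686353-6991557 (minus). The annotated spans run from 5.75 kb for Cd8a, 8.11 kb for Cd69, 22.4 kb for Icos and 23.5 kb for Cd4 to 177 kb for Cblb, 295 kb for Skap1 and 305 kb for Tox, with Stat3 (54.4 kb) and Cd28 (56.6 kb) between them.

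The RefSeq promoter table (GRCm38.p6) held a window for 3 of the 9 genes, Stat3, Cblb and Cd8a. The 250 bases before the start are shown for Stat3, a gene found in every cell class below, and for Cd8a, a gene nearly absent outside T-like cells; they are written 5′ to 3′ on the gene's own strand, with each CG dinucleotide in capitals. A CG reads the same on both strands.
Stat3 chr11:100939541-100939790 (minus): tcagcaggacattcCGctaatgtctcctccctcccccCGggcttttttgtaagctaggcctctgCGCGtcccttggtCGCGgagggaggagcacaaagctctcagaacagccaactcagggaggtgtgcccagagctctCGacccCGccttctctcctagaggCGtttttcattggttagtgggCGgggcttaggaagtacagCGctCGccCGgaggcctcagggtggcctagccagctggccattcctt
Cd8a chr6:71373177-71373426 (plus): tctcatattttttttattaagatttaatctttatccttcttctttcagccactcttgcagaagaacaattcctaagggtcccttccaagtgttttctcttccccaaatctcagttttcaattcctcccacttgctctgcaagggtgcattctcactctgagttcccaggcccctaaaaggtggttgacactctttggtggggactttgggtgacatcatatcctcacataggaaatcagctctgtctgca
The Stat3 window held 13 CG and the Cblb window (chr16:52031299-52031548, plus) held 14. The median was 6 over 32851 promoter windows of this length, of which 92.1% held at least 1. Fewer CG than in Stat3 were held by 68.5% of windows, and fewer than in Cblb by 70.6%. The Cblb window follows the promoter table and lies inside the annotated span given above, which begins further upstream. The Cd8a window held 0. GC content was 60.8% for Stat3, 58.8% for Cblb and 42.8% for Cd8a, with a median of 52.4% over all windows. Since only 3 genes had a window, these counts are a description of those genes.

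Total depth was similar across libraries, between 8323896 and 10591577 UMIs (unique molecular identifiers, each 1 counted RNA molecule), but its spread over cells was not. The barcodes kept as cells had 200 to 7000 genes, and mitochondrial UMIs were limited to 10%. They numbered 968 and 1194 in the batch 1 libraries, with medians of 3862 and 4049 UMIs, and 6212 to 10190 in the batch 2 libraries, with medians of 595 to 1142 UMIs. T-like and myeloid-like cells of the batches fell almost wholly in separate clusters, whereas the endothelial-like and mural-like clusters held cells of both batches. Actb took 1.99% to 2.27% of cell UMIs in batch 1 and 8.77% to 16.97% in batch 2 and was left out of all totals. Any pair of libraries shared at most 0.503% of the barcodes of the smaller one. Ago1 had 0 UMIs in 77 WT and 134 KO endothelial-like cells, which allows up to 47.3 and 35.95 CPM (3 UMIs over the group), so the deletion could not be seen at this depth.

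Clusters were named from marker lists that held none of the 9 genes, which were also kept out of the clustering. T-like cells (1383 of 65298) came from 3 clusters, in which 13 to 18 of 18 T cell markers such as Cd3e, Trac and Lck were at least 2-fold above all other cells. Myeloid-like cells (2080) came from 2 clusters with 12 and 16 of 16 markers, among them C1qa and Csf1r. Tumor-like cells (55337) were the cells outside the clusters of other types, and 7 of 8 tumor or mesenchyme markers were at least 2-fold above T-like and myeloid-like cells. In each library, 15 to 18 of the 18 T cell markers had a UMI in the T-like cells. Their summed level was 6563 and 7247 CPM in batch 1 and 2611 to 4971 CPM in batch 2, where CPM is a gene's UMIs scaled to 1e6 UMIs of that class in that library. Markers of the tumor list reached 917 and 1042 CPM in the T-like cells of batch 1 and 2845 to 9778 CPM in those of batch 2. Their part in the levels below was not tested.

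Over the 3 main classes, each of the 9 genes had its highest mean level in T-like cells, but the genes differed in how much was found elsewhere. Stat3 and Cblb were present in every class, Icos, Skap1, Tox, Cd28 and Cd8a stood mainly in T-like cells, Cd69 was shared by T-like and myeloid-like cells, and Cd4 was spread thinly. The classes were compared without a test, since clustering formed them from the same cells.

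**Figure D1:**
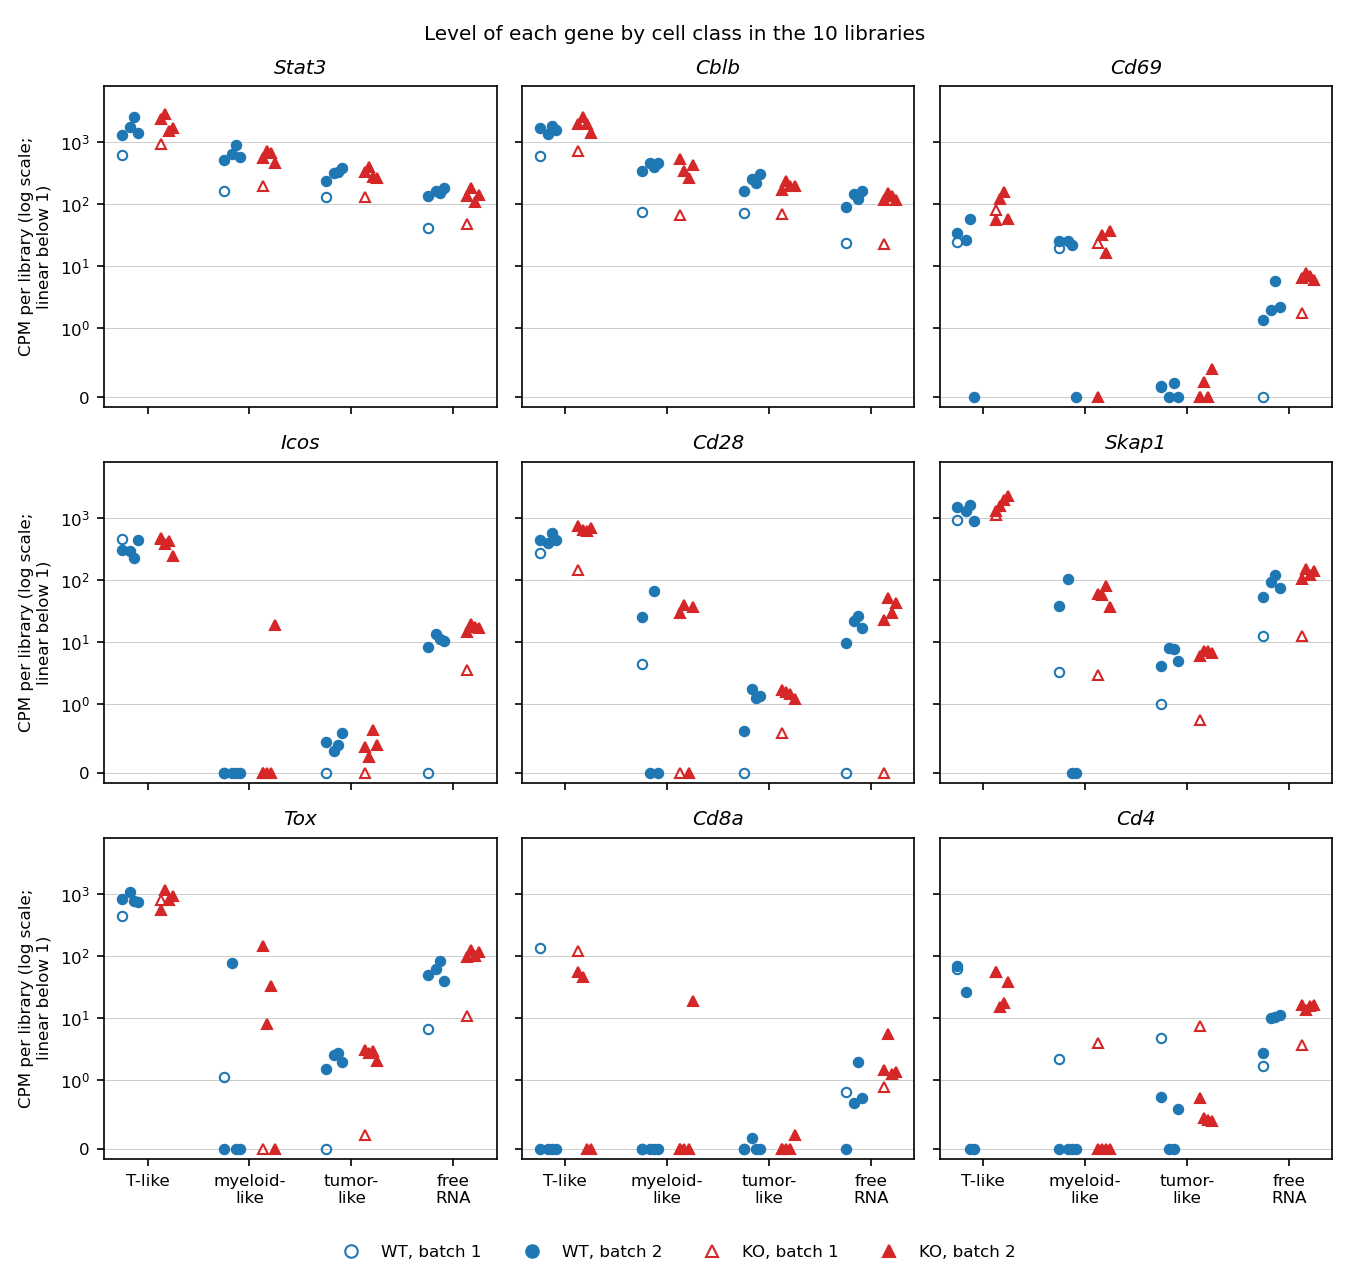
Level of each of the 9 genes (CPM, log scale above 1 and linear below) in T-like, myeloid-like and tumor-like cells and in free RNA, with 1 point per library, circles for WT and triangles for KO, open for batch 1 and filled for batch 2. Stat3 and Cblb lie above 60 CPM in all cell classes of all libraries, while Icos, Cd28, Skap1 and Tox lie above 100 CPM in T-like cells and below 10 CPM in tumor-like cells.

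The coreceptor Cd8a, which marks T cells that see MHC class I, gave few UMIs, 43 in all kept cells. In batch 1 the T-like cells held 26 of its 28 UMIs (92.9%) at 133 CPM (WT) and 119 CPM (KO), while myeloid-like and tumor-like cells held 0. In the T-like cells of batch 2, the 4 WT libraries held 0 UMIs in 322 cells, which allows up to 24.8 CPM (3 UMIs over the group), and KO 1 and KO 2+3 held 54.4 and 44.5 CPM from 2 and 9 UMIs, with 0 in KO 4 and KO 5+6. Pooled over the batch 2 KO libraries the level was 31.5 CPM (95% Poisson interval 15.7 to 56.4, counting error only). Of the 11 UMIs of the batch 2 KO libraries, 9 came from KO 2+3, while KO 4 and KO 5+6 held 0 like the WT libraries. In batch 2 alone the gene did not pass the filter on low counts, so no difference between genotypes is given there.

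Cd4, the coreceptor for MHC class II, had 12 of its 85 batch 1 UMIs and 11 of its 44 batch 2 UMIs in T-like cells. In batch 1 it stood at 60.6 CPM (WT) and 55.4 CPM (KO) in T-like cells. In batch 2 the WT values were 26.1, 0, 0 and 68.3 CPM and the KO values 54.4, 14.8, 17.4 and 37.8 CPM, on 0 to 3 UMIs a library. The groups overlapped, and the level of free RNA, taken from barcodes with at most 50 UMIs, was 12.4 CPM in batch 2. Myeloid-like cells held 6 UMIs in batch 1 and 0 in batch 2.

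Most Cd4 UMIs of batch 1, 66 of 85 (77.6%), lay in tumor-like cells, at 4.65 CPM (WT) and 7.36 CPM (KO) against 2.56 CPM in free RNA. They came from 19 of 1176 cells, of which 10 had at least 2 Cd4 UMIs and 1 had 10. Those 19 cells held 0 UMIs of the 18 T cell markers, and their tumor markers stood at 9242 CPM against 10540 CPM in the tumor-like cells without Cd4. In batch 2 the tumor-like cells held 18 Cd4 UMIs in 18 of 54161 cells, 0.423 CPM, which is below the free RNA of that batch. Whether the UMIs of batch 1 came from transcripts of Cd4 itself was not tested.

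Coreceptor UMIs left most T-like cells unassigned to a CD4 or CD8 lineage. In batch 1, 12 of 112 T-like cells had a Cd4 UMI, 18 had a Cd8a UMI, 0 had both and 73.2% had neither. In batch 2, 11 of 1271 had Cd4, 11 had Cd8a, 0 had both and 98.3% had neither. No split of T-like cells by coreceptor was therefore made.

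The costimulatory receptors Cd28 and Icos stood mainly in T-like cells. Cd28, whose binding to CD80 or CD86 gives the main costimulatory signal of naive T cells, had 83.3% of its 48 batch 1 UMIs and 62.8% of its 452 batch 2 UMIs there. Its level in T-like cells of WT libraries was 267 CPM in batch 1 and 391, 569, 444 and 444 CPM in batch 2, and that of KO libraries was 142 CPM in batch 1 and 735, 643, 610 and 680 CPM in batch 2. Within batch 2 every KO library lay above every WT library, while in batch 1 the KO library lay below the WT library. Such a separation in batch 2 was found for 1.91% of the 993 genes tested in T-like cells, and Cd28 was the only one of the 6 genes tested there to show it. The summed T cell markers of the same cells separated the batch 2 libraries in this way too, at 4112 to 4971 CPM in KO and 2611 to 3985 CPM in WT. Tumor markers stood at 2845 to 5671 CPM in the KO and 3017 to 9778 CPM in the WT libraries, with the highest values in WT 4 and WT 1. The part of these markers in the Cd28 values was not tested.

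Icos, an inducible relative of Cd28 that is high on helper and regulatory T cells, was found in T-like cells alone in batch 1. All 97 of its batch 1 UMIs and 72.5% of its 229 batch 2 UMIs were in these cells. WT libraries stood at 460 CPM in batch 1 and 287, 228, 444 and 308 CPM in batch 2, and KO libraries at 467 CPM and 462, 376, 418 and 246 CPM, with overlapping groups. Myeloid-like cells held 1 Icos UMI in all 10 libraries.

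Skap1, the adaptor between the antigen receptor and integrin adhesion, gave more UMIs than the other T-like genes, 1609 in kept cells. T-like cells held 92.6% of them in batch 1 and 55.3% in batch 2. Levels in T-like cells were 921 CPM (batch 1) and 1277, 1623, 889 and 1504 CPM (batch 2) in WT, and 1091 CPM (batch 1) and 1306, 1563, 1952 and 2268 CPM (batch 2) in KO. The KO values were higher on average, yet the groups overlapped in batch 2. In tumor-like cells of batch 2 Skap1 reached 6.37 CPM, below the 109.9 CPM of free RNA in the same libraries, and the 51.5 CPM of myeloid-like cells was below it too.

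Cblb, a negative regulator of receptor signalling, had its highest level in T-like cells of batch 2 (2039 CPM, interval 1911 to 2172) and nearly the same in dendritic-like cells (1835 CPM, 1557 to 2147). These intervals overlap, and fibroblast-like cells followed at 883 CPM (784 to 992). All intervals here cover counting error of the pooled UMIs only, not the spread between libraries. By library, T-like cells of batch 2 had a mean of 1782 CPM with an SD of 373 CPM. Mural-like (551 CPM) and endothelial-like cells (533 CPM) came next, then B-like (379.5 CPM) and myeloid-like cells (374 CPM), and within each pair the intervals overlapped. Epithelial-like cells (239 CPM, 182 to 308) and tumor-like cells (215 CPM, 211 to 219) were lowest and also overlapped. In batch 1, T-like (675 CPM, 568 to 796) and dendritic-like cells (389 CPM, 286 to 517) did not overlap. Fibroblast-like cells of batch 1 (495 CPM, 386 to 624) lay between and overlapped both. The dendritic-like cluster that held the batch 2 cells had T cell markers at 664 CPM, and their part was not tested. Because tumor-like cells gave most RNA, they still held 76.0% of the Cblb UMIs of batch 2 and 64.9% of those of batch 1, against 7.965% and 11.5% in T-like cells. Free RNA stood at 131 CPM in batch 2 and 23.4 CPM in batch 1, below the tumor-like level in both.

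Among the libraries, Cblb in T-like cells was 606 CPM (batch 1) and 1329, 1822, 1556 and 1709 CPM (batch 2) in WT. In KO it was 720 CPM and 1959, 2498, 1969 and 1418 CPM, and KO 5+6 lay inside the WT range. In tumor-like cells the WT values were 72.7 CPM and 250, 221, 300 and 160 CPM, and the KO values 69.7 CPM and 168, 238, 199 and 194 CPM, again with overlap.

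Cd69, the early activation antigen and a lectin that retains lymphocytes in tissue, was shared between T-like and myeloid-like cells. In batch 1 myeloid-like cells held 42 of its 64 UMIs (65.6%) and T-like cells 12 (18.8%), although the level was higher in T-like cells, 57.4 against 21.7 CPM. B-like cells of batch 1 stood at 73.4 CPM on 5 UMIs. In batch 2, T-like cells held 42 of 84 UMIs at 89.4 CPM and myeloid-like cells 11 at 24.6 CPM, above the 5.03 CPM of free RNA. Tumor-like cells stayed at 0.118 CPM on 5 UMIs.

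In T-like cells the WT libraries gave Cd69 at 24.2 CPM (batch 1) and 26.1, 56.9, 0 and 34.2 CPM (batch 2), from 6 UMIs in all. The KO libraries gave 79.1 CPM and 54.4, 119, 157 and 56.7 CPM, from 48 UMIs. WT 3 lay above KO 1 and KO 5+6, so the groups overlapped, and the gene did not pass the filter on low counts.

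The transcription factor genes Stat3 and Tox stood at opposite ends of breadth. Tox had 98.5% of its batch 1 UMIs (135 of 137) and 60.1% of its batch 2 UMIs (453 of 754) in T-like cells. Its levels there were 436 CPM (batch 1) and 1068, 769, 722 and 820 CPM (batch 2) in WT, and 783 CPM and 544, 1153, 801 and 926 CPM in KO. KO 1 was the lowest of the batch 2 libraries and KO 2+3 the highest, so within batch 2 the KO values enclosed those of WT.

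Stat3 was highest in T-like cells of batch 2, at 2241 CPM (interval 2107 to 2380), followed by epithelial-like cells at 1559 CPM (1407 to 1722) and dendritic-like cells at 1207 CPM (984 to 1466), whose intervals overlapped. Endothelial-like (789 CPM), fibroblast-like (772 CPM), mural-like (660 CPM) and myeloid-like cells (640 CPM) had intervals that overlapped. B-like cells stood at 463 CPM and tumor-like cells at 314 CPM (309 to 320), above the 149 CPM of free RNA. Tumor-like cells held 77.9% of Stat3 UMIs in batch 2 and 69.6% in batch 1, and T-like cells 6.14% and 8.15%.

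Across libraries, Stat3 in T-like cells was 618 CPM (batch 1) and 1772, 2534, 1389 and 1299 CPM (batch 2) in WT and 941 CPM and 2394, 2805, 1533 and 1701 CPM in KO. WT 3 exceeded 3 of the 4 batch 2 KO libraries. In myeloid-like cells the values were 161 CPM and 642, 887, 565 and 520 CPM in WT, and 193 CPM and 553, 721, 663 and 464 CPM in KO. In tumor-like cells WT and KO libraries of batch 1 stood at 131 and 128 CPM, and those of batch 2 at 237 to 386 and 268 to 403 CPM.

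**Figure D2:**
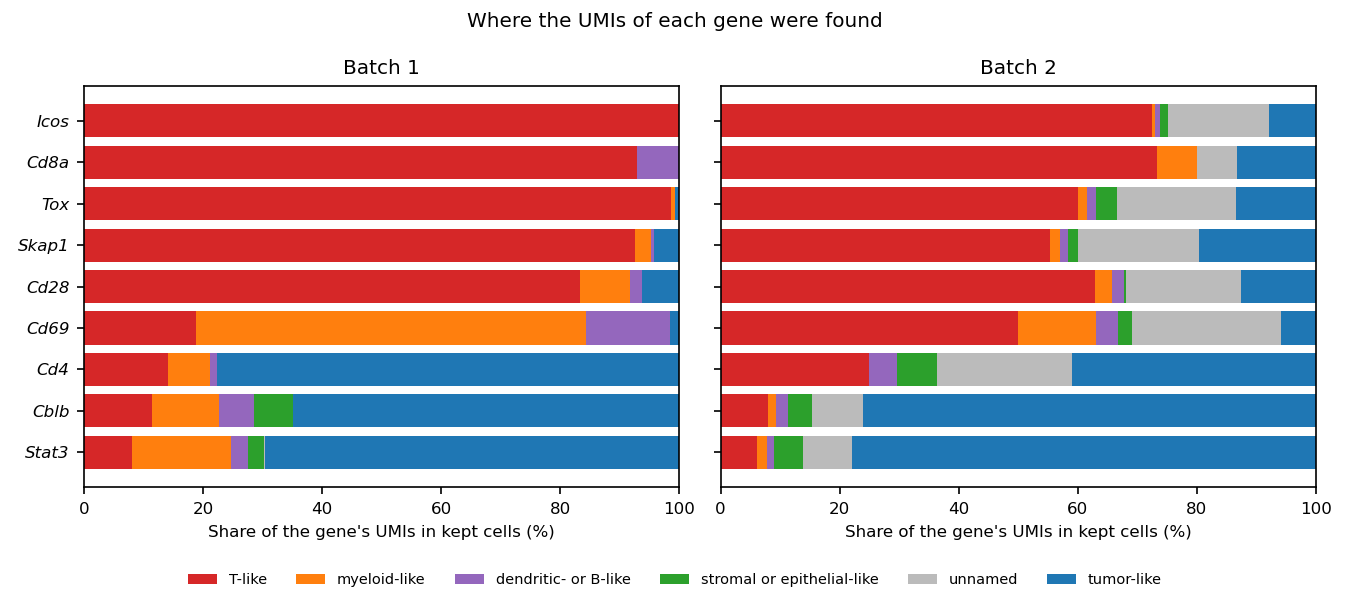
Share (%) of each gene's UMIs in kept cells that fell in each cell class, pooled over the libraries of batch 1 (left) and batch 2 (right). T-like cells hold 92.6% to 100% of Icos, Cd8a, Tox and Skap1 in batch 1 and 55.3% to 73.3% in batch 2, where 6.67% to 20.2% lies in unnamed clusters, and tumor-like cells hold most of Stat3 and Cblb in both.

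The lower shares of T-like cells in batch 2 went with UMIs in clusters left unnamed and in tumor-like cells. The unnamed clusters held 279 of the 1378 Skap1 UMIs and 151 of the 754 Tox UMIs of batch 2, in 4346 cells. In batch 1 they held 0 of either gene, but only 8 cells with 4735 UMIs, too few to compare. Tumor-like cells held 19.7% of the Skap1 UMIs in batch 2 against 4.33% in batch 1, and 13.4% of the Tox UMIs against 0.730%. For Cd8a in batch 2, tumor-like cells held 2 of 15 UMIs and the unnamed clusters 1. One of the unnamed clusters (647 cells, 2 of them from batch 1) carried 8 T cell markers at least 2-fold above other cells, with T cell markers at 739 CPM and tumor markers at 18840 CPM. Skap1 stood at 313 CPM there, Tox at 154 CPM and Cd28 at 111 CPM, below the T-like clusters and above tumor-like cells.

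In single cells the 9 genes were again seen most often among T-like cells. In batch 2, 88.4% of 1271 T-like cells had a UMI of at least 1 of the 9 genes and 60.2% of at least 2 of them. Among myeloid-like cells these shares were 27.7% and 4.07%, and among tumor-like cells 30.7% and 4.23%, with median depths of 297 UMIs in T-like, 280 in myeloid-like and 620 in tumor-like cells. In batch 1 the shares were 98.2% and 91.1% of 112 T-like cells, 47.2% and 6.97% of 703 myeloid-like cells, and 65.1% and 29.8% of 1176 tumor-like cells, with median depths of 1217, 2489 and 10400 UMIs. Tumor-like cells, the deepest, lay above myeloid-like cells in these shares.

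At an equal depth of 500 UMIs a cell, Skap1 had a UMI in 42.7% of batch 1 and 41.3% of batch 2 T-like cells, against 69.6% and 41.5% before thinning. Only 168 of the 1271 batch 2 cells were that deep, and 108 of 112 in batch 1. Stat3 was seen in 28.3% (batch 1) and 49.2% (batch 2) of the thinned T-like cells, and Cblb in 28.5% and 45.1%. Icos went the other way, with 23.0% in batch 1 and 11.2% in batch 2, and Cd8a stood at 5.69% and 0.535%. For tumor-like cells, which should lack Skap1 and Icos, the thinned shares in batch 2 were 0.312% and 0.0193%. Stat3 was seen in 14.3% and Cblb in 10.1% of these thinned tumor-like cells.

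The T-like cells of batch 2 formed 2 clusters that differed in several of the genes. The first (743 cells, 2 of them from batch 1) was led by Ikzf2, Prkch and Tox, and the other (530 cells) by Gm2682, Skap1 and Satb1, a chromatin organiser. Summed T cell markers stood at 5327 CPM in the first and 3004 CPM in the other, and tumor markers at 3177 and 5657 CPM. The part of these markers in the differences below was not tested. Tox stood at 1356 CPM in the first and 418 CPM in the other, Icos at 506 and 138 CPM, and Stat3 at 2911 and 1293 CPM. Cblb (2358 and 1589 CPM) and Cd28 (674 and 504 CPM) were closer, Cd69 had overlapping intervals (91.1 and 86.6 CPM), and Skap1 was lower in the first (1370 against 1965 CPM). By batch 2 library, Tox ran from 784 to 1950 CPM in the Ikzf2 cluster and from 87.9 to 674 CPM in the other. Icos ran from 280 to 1207 CPM against 0 to 290 CPM, on 0 to 11 UMIs a library in the other cluster. The clusters were cut from the same cells. How many other genes differed between them in the same way was not counted. The 110 cells of the batch 1 T-like cluster, led by Gzma, AW112010 and Trbc2, had Icos at 466 CPM and Tox at 644 CPM.

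**Figure D3:**
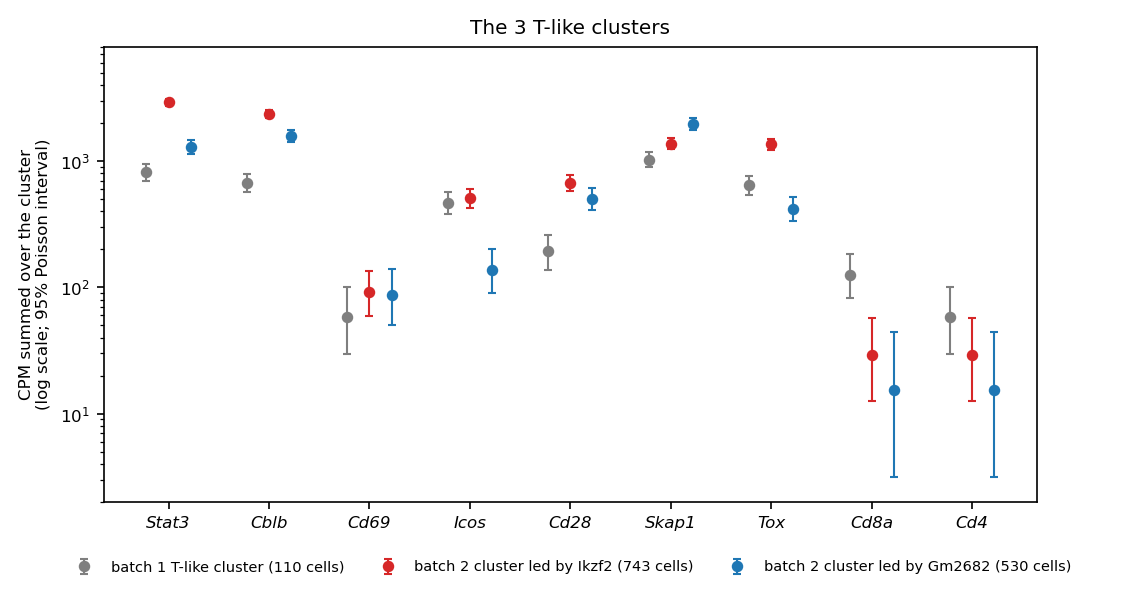
Level of the 9 genes (CPM, log scale) summed over each of the 3 T-like clusters, with 95% Poisson intervals that cover counting error only. The batch 2 cluster led by Ikzf2 lies above the one led by Gm2682 for Stat3, Cblb, Icos and Tox without overlap of the intervals and below it for Skap1.

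The mix of these clusters varied between libraries. The Ikzf2 cluster made up 49.5%, 70.1%, 57.1% and 43.2% of T-like cells in WT 1, 3, 4 and 5, and 61.9%, 68.1%, 44.6% and 41.6% in KO 1, KO 2+3, KO 4 and KO 5+6. The genotypes overlapped in this share.

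Likeness of pattern was measured by Pearson's correlation of log2(CPM + 10) across 28 clusters, among 11173 genes with at least 200 UMIs, as a description over points that share libraries and depth. Skap1 was close to Gm2682 (r = 0.94), Cd28 to the receptor chain Cd247 (0.94), and Tox to Themis (0.94), a regulator of thymocyte selection. Icos was closest to the receptor chain Trac (0.98) and Ctla4 (0.95). Stat3 came nearest to Mknk2 (0.89) and Akap13 (0.85), and Cblb to the kinase Fyn (0.84) and Adam19 (0.84). Cd69 was nearest to Bin2 (0.94) and Grap2 (0.93), Cd8a to Cd27 (0.91) and Nkg7 (0.89), and Cd4 to Trac (0.85) and Hopx (0.85), on 148, 43 and 129 UMIs of the gene itself.

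KO was compared with WT on UMIs summed per library and class (edgeR, quasi-likelihood test, batch as covariate, Benjamini-Hochberg adjustment over all genes tested). In T-like cells 6 of the 9 genes passed the filter on low counts, and 0 of them were called, as were 0 of all 993 genes tested (0%), with 52 genes at an unadjusted p under 0.05 and 0 calls by DESeq2. The log2 fold changes of KO over WT were 0.31 ± 0.21 (SE, n = 5 libraries a group) for Skap1, 0.28 ± 0.22 for Stat3, 0.24 ± 0.20 for Cblb, 0.19 ± 0.24 for Cd28, 0.18 ± 0.21 for Tox and 0.12 ± 0.24 for Icos. All 6 were positive, as were 46.0% of the 993 genes tested, with adjusted p between 0.927 and 0.954. The summed T cell markers were higher in KO in every batch 2 library as well, and their part was not tested. Leaving out 1 library moved the values to 0.15 without KO 2+3 and 0.48 without WT 3 for Stat3, to 0.13 without KO 2+3 for Cblb, and to 0.06 without WT 1 and 0.52 without KO batch 1 for Cd28. Icos ranged from 0.03 without WT 3 to 0.31 without KO batch 1, Tox from 0.06 without KO 2+3 to 0.32 without WT 1, and Skap1 from 0.20 without KO 5+6 to 0.41 without KO batch 1. Tox came to -0.01 without KO 2+3 and KO 5+6.

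Cd69, Cd8a and Cd4 were tested in T-like cells only when the filter was dropped. The log2 fold change was then 1.74 ± 0.60 for Cd69 (unadjusted p = 0.00378, adjusted p = 0.479 by edgeR), 0.54 ± 0.64 for Cd8a and -0.04 ± 0.69 for Cd4. That fit tested 7356 genes, and the median of all of them was 0.12.

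In myeloid-like cells, Stat3 (0.01 ± 0.17) and Cblb (-0.15 ± 0.21) were the genes tested, with edgeR adjusted p = 0.998 for both, and 1 of 1305 genes was called (0.0766%). That gene was Prdx1, a peroxidase, at -0.89 ± 0.19 (adjusted p = 0.0453 by edgeR), which is not on the list and was named after its value was seen because the count was 1. DESeq2 called 0 genes there. In tumor-like cells Stat3 (-0.04 ± 0.15), Cblb (-0.23 ± 0.15), Skap1 (0.06 ± 0.23) and Tox (0.31 ± 0.31) were tested and none was called, with 0 of 11480 genes called by edgeR (0%), 595 at an unadjusted p under 0.05 and 1 call by DESeq2. In tumor-like cells Skap1 and Tox lay below the level of free RNA.

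Over all kept cells the picture differed between the broad genes and the other listed genes tested there. Stat3 (0.09 ± 0.16) and Cblb (-0.05 ± 0.17) were near 0. Cd69 was at 1.63 ± 0.45, Tox at 1.29 ± 0.35, Icos at 1.25 ± 0.36, Cd28 at 1.17 ± 0.38 and Skap1 at 1.15 ± 0.30, with unadjusted p of 0.00159 to 0.00680. With adjustment over 12450 genes their p was 0.450 to 0.462 by edgeR, so none was called, as was none of all genes (0%), while 1102 genes had an unadjusted p under 0.05 and DESeq2 called 2 genes, neither of the list.

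Skap1 over all cells stood at 11.9 CPM (batch 1) and 21.1, 24.3, 11.2 and 13.2 CPM (batch 2) in WT and at 22.2 CPM and 19.8, 78.0, 35.0 and 37.4 CPM in KO. KO 2+3 was the highest library, and KO 1 lay inside the WT range. Icos stood at 5.27 CPM and 2.58, 3.13, 2.67 and 2.16 CPM in WT and at 9.05 CPM and 3.82, 15.7, 6.08 and 3.95 CPM in KO. In batch 2 every KO library lay above every WT library for Icos, Cd28 and Cd69, a separation that 3.82% of the genes tested over all cells showed.

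The share of T-like cells also varied between libraries, and its order followed these values only in part. It was 4.36% in WT and 6.20% in KO in batch 1. In batch 2 it was 0.972%, 1.35%, 0.447% and 1.19% in WT and 1.26%, 7.996%, 2.32% and 2.065% in KO. KO 2+3 was highest and WT 4 lowest, and WT 3 lay above KO 1. For Skap1 over all cells, WT 1 lay above KO 1 and WT 5 on a lower share than either. KO 2+3 gave 527 of the 1383 T-like cells. Without it the log2 fold changes over all cells were 1.19 (Cd69), 0.77 (Skap1), 0.74 (Icos), 0.72 (Tox) and 0.63 (Cd28). Over all cells, more T cells and more RNA per T cell cannot be told apart. Within T-like cells the log2 fold changes of Icos, Tox, Cd28 and Skap1 were 0.12 to 0.31, and none was called. Cd69 was tested there only without the filter, at 1.74 ± 0.60 on 6 WT and 48 KO UMIs, and was not called either.

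**Figure D4:**
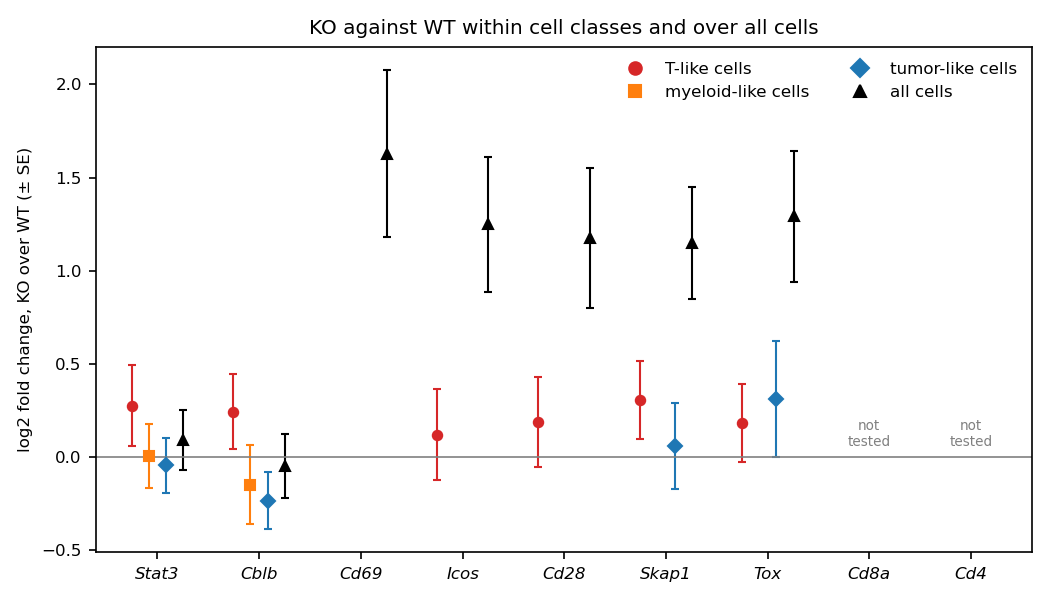
Log2 fold change of KO over WT (± SE) for each gene in T-like (red circles), myeloid-like (orange squares) and tumor-like cells (blue diamonds) and over all kept cells (black triangles), with a gap where a gene did not pass the filter. Cd69, Icos, Cd28, Skap1 and Tox lie between 1.15 and 1.63 over all cells and, where tested, between 0.12 and 0.31 in T-like cells.

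Other genes of the pathway, from 7 lists, gave 0 calls in either direction in each class and over all cells. In T-like cells 30 of their 110 list entries passed the filter. The median log2 fold change of all 993 genes there was -0.03. Proximal receptor signalling (7 of 23 tested) had a median of 0.00, with Nfatc3 at -0.40 ± 0.26. The 3 of 18 tested brakes on signalling had a median of 0.27, with the phosphatase Ptpn22 at 0.47 ± 0.21 and Ubash3b at 0.27 ± 0.29. Transcription factors of T cell state (7 of 14 tested, median 0.07) included Gata3 (0.36 ± 0.26) and Ikzf2 (-0.23 ± 0.24).

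Of the activation-induced genes, 5 of 15 were tested (median 0.01), with Id2 at 0.34 ± 0.25 and the IL-2 receptor chain Il2ra at -0.28 ± 0.25. The STAT3 axis, kinases, receptors and other STAT genes around STAT3, had 6 of 19 tested (median -0.03), with the kinase Jak2 at 0.41 ± 0.24. Only Trac (0.35 ± 0.28) of 8 receptor complex genes and Tnfrsf9 (0.16 ± 0.21) of 13 costimulatory receptors were tested. Over all cells, 13 of 14 transcription factors of T cell state were tested with a median of 0.85, and 20 of 23 proximal signalling genes with a median of 0.47, beside 0.00 for all 12450 genes, and 0 genes of either list were called.

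The batches differed more than the genotypes. In T-like cells 31.5% of the 993 genes differed between batches by the same edgeR fit, and so did Icos, Tox and Skap1 of the 6 listed genes tested. The directions depended on the scaling. The edgeR fit scales by TMM over the 993 genes that passed the filter, and there the median gene was at 0.04 on the log2 scale (batch 2 over batch 1), with 118 genes called higher in batch 2 and 195 lower. Scaled instead to all UMIs of the class, which gives the CPM printed above and was added after the data were seen, the median of the same genes was 1.30, with 782 called higher and 84 lower.

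Icos was lower in batch 2 on both scales, at -1.71 ± 0.25 by TMM (adjusted p = 6.9e-07) and -0.44 ± 0.26 by class totals (0.106, both by edgeR), with mean levels of 463.5 CPM in batch 1 and 346 CPM in batch 2. Tox was at -0.76 ± 0.24 (0.0137) by TMM and 0.51 ± 0.25 (0.0597) by class totals, with means of 609.6 and 850.5 CPM. Skap1 was at -0.65 ± 0.24 (0.0388) by TMM and 0.63 ± 0.25 (0.0201) by class totals, with means of 1006 and 1548 CPM. For Tox and Skap1, then, the sign turned with the scaling, and no direction between batches is given.

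Cd28, Cblb and Stat3 were higher in batch 2 by class totals, at 1.54 ± 0.30, 1.43 ± 0.27 and 1.33 ± 0.29 (adjusted p of at most 7.4e-05 by edgeR). Their mean levels were 204.5 and 564.6 CPM for Cd28, 663 and 1782 CPM for Cblb, and 779.5 and 1928 CPM for Stat3. By TMM they were at 0.27 ± 0.31, 0.16 ± 0.25 and 0.05 ± 0.27 and were not called.

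Among the 14 alternatives to the TMM fit, Icos was called in 13, Tox in 10 and Skap1 in 3, of which 1 had the opposite sign. Of the libraries left out in turn, the Tox call was lost without KO batch 1 (-0.46, adjusted p = 0.434 by edgeR). The Skap1 call was lost without any one of WT batch 1, KO batch 1, WT 1, WT 3, WT 4, WT 5, KO 1 or KO 2+3 (-0.89 to -0.49). Cd28 was at -0.64 without KO batch 1 and at 1.01 without WT batch 1. Without the filter, Cd8a was at -3.09 ± 0.59 and Cd4 at -1.76 ± 0.70.

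In myeloid-like cells 57.5% of the genes tested differed between batches, and Cblb rose by 0.87 ± 0.22 (adjusted p = 0.00127; 0.0823 without KO batch 1, by edgeR) while Stat3 (0.28 ± 0.18) was not called. Scaled to class totals the median of all genes there was 1.63, with 1054 called higher and 159 lower against 379 and 371 by TMM, and Cblb was at 2.43 ± 0.24 and Stat3 at 1.84 ± 0.20. In tumor-like cells 76.3% differed, with 4269 of the 11480 genes tested called higher in batch 2 and 4485 lower. All 4 listed genes tested rose in batch 2, by 1.13 ± 0.20 for Stat3, 1.44 ± 0.21 for Cblb, 2.65 ± 0.40 for Skap1 and 4.28 ± 0.71 for Tox. The Tox value rests on 1 UMI in batch 1 against 101 in batch 2, so Tox passed the filter through batch 2. It ran from 3.47 to 6.54 on leaving out 1 library. Skap1 had 10 UMIs in batch 1 against 271. The directions of all 4 genes were the same by class totals, where the median of all genes was 0.16. Free RNA of the same genes was higher in batch 2 as well, 109.9 against 12.4 CPM for Skap1 and 85.5 against 8.52 CPM for Tox. The part of free RNA in these rises was not tested.

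**Figure D5:**
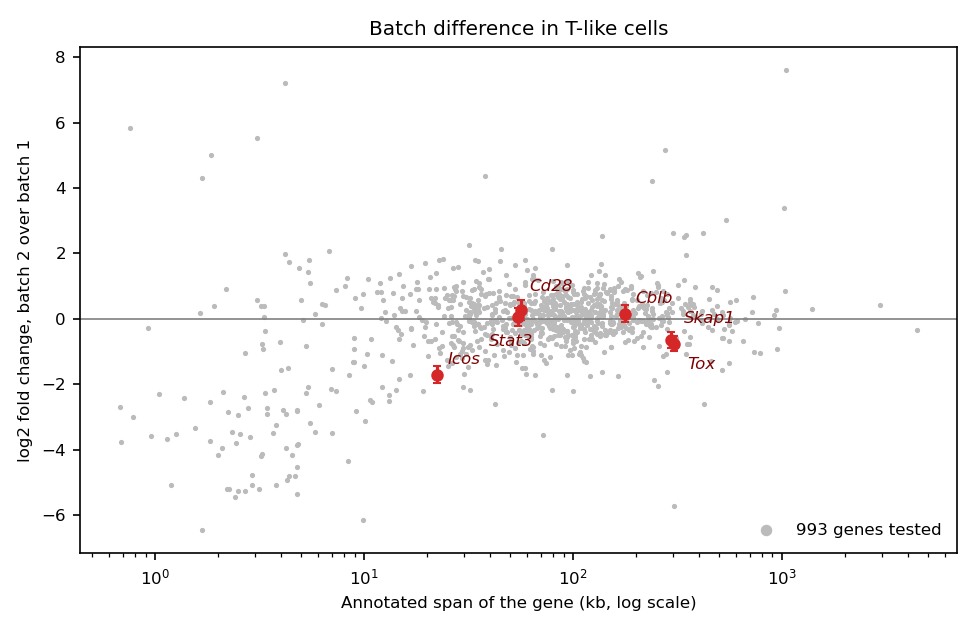
Log2 fold change of batch 2 over batch 1 in T-like cells (TMM scaling) against the annotated span of each gene (kb, log scale), grey for the 993 genes tested and red (± SE) for the 6 listed genes that passed the filter. Short genes spread below 0, and Icos, the shortest of the 6 at 22.4 kb, is the lowest of them at -1.71. Tox (305 kb) and Skap1 (295 kb), the longest, lie below 0 too, at -0.76 and -0.65. Scaling to class totals moves the median of all genes from 0.04 to 1.30 and turns the sign of Skap1 and Tox.

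Span went along with the batch difference over all genes (TMM scaling). Across genes, which are not independent, Spearman's rho between span and the log2 fold change of batch 2 over batch 1 was 0.20 in T-like cells (993 genes), 0.37 in myeloid-like cells (1305 genes) and 0.57 in tumor-like cells (11466 genes). In tumor-like cells genes were also cut into 4 equal groups by span, of which the shortest (median span 6.38 kb) had a median of -1.45 and the longest (133 kb) of 1.02. In T-like cells the groups cut in the same way had medians of -0.53 (shortest, 12.3 kb) and 0.14 (longest, 235 kb). Tox and Skap1, the longest of the listed genes, lay at -0.76 and -0.65 there. The platform and the depth per cell differ between the batches together and cannot be told apart.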

How the data were processed

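The authors aligned 10x 3' libraries to mm10 with Cell Ranger (version 7.1.0 per the file headers) and deposited raw UMI counts per gene and barcode, unnormalised and unfiltered. Batch 1 and batch 2 were run on different NovaSeq instruments. Here, barcodes with 200 to 7000 genes and up to 10% mitochondrial UMIs were kept, Actb was left out of totals, and cells were clustered with scanpy 1.11.5 (2000 variable genes, 30 components, Leiden resolution 1). A cluster took the name of a marker list if 3 or more of its genes lay 2-fold above the remaining cells, and a cluster whose markers summed to under 25% of the strongest cluster of its batch stayed unnamed. These limits were set after the clusters were seen. Doublets were not removed.

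UMIs were summed per library and class and tested with edgeR 4.0.16 (TMM, filterByExpr, quasi-likelihood, genotype and batch, Benjamini-Hochberg at 0.05). SE was taken as the absolute log2 fold change over the square root of F. The fit was tested on simulated data. Alternatives were DESeq2 1.42.0, no filter (at least 10 UMIs), no batch term, batch 2 alone, a replicate block, other resolutions, Actb kept, cells with at least 500 UMIs, leaving out libraries and, added after the data were seen, scaling to class totals without TMM. Depth was 8323896 to 10591577 UMIs a library. Poisson intervals (95%) cover counting error only. The genes and lists were chosen with earlier results of these data known. Genes outside the list were named when closest in pattern (2 per gene) or as the up to 2 genes of each list with the smallest unadjusted p in T-like cells. Some genes that this rule picks are not reported here.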

Additional observations from a re-analysis of the deposited data

Results flagged for a closer look

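In 10 of the 55 groups of 5 libraries tested, 1 library stood apart from the others of its genotype by Dixon's criterion. In 8 of these the library was from batch 1, which holds 1 library of each genotype. Chance meets the criterion in about 1 in 20 groups when all values are drawn alike and from a normal distribution. The groups here mix the batches, and those over all cells include the cells of each class, so the count cannot be set against that rate.

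In T-like cells, Cd8a stood at 133.3 CPM in WT batch 1 with 0 in the other WT libraries. Pooled, that 0 allows up to 24.8 CPM (3 UMIs over the group), and in any 1 library alone it allows more. In the same cells Cd28 stood at 142.3 CPM in KO batch 1 against 609.8 to 734.5 CPM in the other KO libraries. In myeloid-like cells, Cd69 had 0 UMIs in WT 4 and 19.72 to 25.69 CPM in the other WT libraries, but its 29 myeloid-like cells gave 8848 UMIs, so that 0 allows up to 339 CPM (3 UMIs) and does not set it apart. In tumor-like cells, Cd4 was at 4.647 CPM in WT batch 1 against 0 to 0.7554 CPM, and at 7.356 CPM in KO batch 1 against 0.4059 to 0.7417 CPM. Skap1 in tumor-like cells was at 0.7743 CPM in KO batch 1 against 5.933 to 7.185 CPM.

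Over all cells, WT batch 1 was highest of the WT libraries for Cd69 (3.603 CPM against 0.1782 to 1.104 CPM) and Cd8a (1.663 CPM against 0 to 0.2868 CPM), and KO batch 1 was highest of the KO libraries for Cd4 (7.669 CPM against 0.7366 to 1.329 CPM). Tox stood at 51.48 CPM in KO 2+3 against 11.46 to 15.34 CPM, and that library also had the highest share of T-like cells, 7.996%. The part of that share in the Tox level was not tested.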

How the results depend on the processing

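No listed gene was called between KO and WT under any alternative run, over 379 values, of which 355 kept their direction and 24 reversed. Reversals were near 0. Tox in T-like cells came to -0.0059 without both pooled libraries. Stat3 in myeloid-like cells came to -0.017 with DESeq2, -0.059 without the batch term, -0.083 in batch 2 alone and -0.046 at resolution 0.5, and ran from -0.074 to 0.15 on leaving out 1 library. Skap1 in tumor-like cells came to -0.10 in cells with at least 500 UMIs and ran from -0.094 to 0.19 on leaving out 1 library. Over all cells Stat3 came to -0.016 without the pooled libraries. Leaving out 1 library gave -0.15 to 0.053 for Stat3 in tumor-like cells, and over all cells -0.063 to 0.18 for Stat3 and -0.21 to 0.063 for Cblb. Scaled to class totals in place of TMM, an alternative added after the data were seen, Cblb over all cells came to 0.022. The cause was not tested.

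Counts of genes changed between KO and WT were 0 to 6 in T-like cells on leaving out 1 library (6 without WT 3), and in myeloid-like cells 0 with DESeq2, without the batch term, without the pooled libraries, at resolution 0.5 or 2 and in cells with at least 500 UMIs, 3 in batch 2 alone, 17 without the filter and 0 to 3 on leaving out 1 library. In tumor-like cells they were 1 with DESeq2 and 4 without the filter, and over all cells 2 with DESeq2 and 0 to 1 on leaving out 1 library (1 without KO 4). Scaling to class totals gave 0 in myeloid-like cells. Between batches it gave 866 in T-like and 1213 in myeloid-like cells and turned the sign of Skap1 (0.63) and Tox (0.51) in T-like cells, where the median of all genes moved from 0.04 to 1.30. Also, 2415 genes in T-like and 5583 in myeloid-like cells differed without the filter, and 162 to 405 (162 without WT batch 1, 181 without KO batch 1) and 474 to 828 (474 without KO batch 1) on leaving out 1 library. In T-like cells that range was -0.049 to 0.17 for Stat3, -0.039 to 0.27 for Cblb and -0.64 to 1.01 for Cd28.

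With a replicate block in place of the batch term, 0 genes were called in myeloid-like cells, where Stat3 was at -0.00013, and 0 in the other classes. Same-numbered libraries of batch 2 did not deviate together (r = -0.30 and -0.40 over 6196 genes), so the numbers are not shown to pair tumors. UMI counts of Cd8a, Cd4 and Cd69 are too few in T-like cells to resolve moderate differences.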
